A study of Mus musculus with 100 samples.

Results

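Fbxo32 and Trim63, the muscle-restricted ubiquitin ligases known as atrogin-1 and MuRF1, were followed with 7 further genes of the muscle atrophy program in mouse knees whose anterior cruciate ligament (ACL) was torn. The 9 genes (Fbxo32, Trim63, Foxo1, Foxo3, Mstn, Gadd45a, Smox, Hk2 and Bdh1) were taken by name from the 17310 genes of the count table, and all 9 were listed. RNA-seq covered 100 libraries of whole knee joints of the strains MRL/MpJ, C57BL/6 and STR/ort. The study describes these strains as not, moderately and highly susceptible to osteoarthritis. The labels give an age of 10 weeks for every library. Per the study's methods this was the age at injury, so mice were older at later times. Right knees were injured by a single tibial compression under isoflurane with buprenorphine given afterwards, and the uninjured joints after 0-day are the opposite knees of injured mice. There were 21 groups: uninjured joints before injury at 0-day (4 libraries per strain), and, at each of 1-day, 1-week and 2-weeks, injured joints and their uninjured contralateral joints (5 libraries per group, except 4 in the uninjured 1-week groups of MRL/MpJ and STR/ort). The same anaesthetic and analgesic were therefore given to the mice of both joints, and the 0-day mice were not injured. The joints were cut close to the joint line and kept some soft tissue, so each library mixes bone, cartilage, synovium, marrow and muscle.

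Muscle loses mass after disuse, denervation, fasting, glucocorticoid excess and injury, and in each setting a shared set of genes changes in the muscle fibre. Fbxo32 and Trim63 mark muscle proteins with ubiquitin for breakdown by the proteasome. Foxo1 and Foxo3 encode transcription factors that switch on both ligases when insulin-like growth factor and Akt signaling is low, Mstn encodes myostatin, a secreted inhibitor of muscle growth, and Gadd45a encodes a nuclear protein induced in denervated muscle. Smox (spermine oxidase) supports fibre size and is repressed in several forms of atrophy, Hk2 encodes the hexokinase that traps glucose in muscle, and Bdh1 encodes the mitochondrial enzyme of ketone body oxidation.

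The genes are spread over 8 chromosomes. In RefSeq coordinates of GRCm38.p6, the build of mm10 to which the reads were aligned, Fbxo32 spans chr15:58175879-58214892, Trim63 chr4:134315120-134329629, Foxo1 chr3:52268337-52350109, Foxo3 chr10:42181845-42276695 and Mstn chr1:53061640-53068079. Gadd45a spans chr6:67035096-67037407, Smox chr2:131491858-131525183, Hk2 chr6:82725025-82774454 and Bdh1 chr16:31422297-31458901. Counts cover the exons of a gene.

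The promoter of Trim63 is shown because its letters could be searched for the binding motifs of the factors named above. The 250 bases before its start, chr4:134314870-134315119 on the plus strand (GRCm38.p6, RefSeq), read as follows, with 3 motif matches in capitals.
Trim63 promoter: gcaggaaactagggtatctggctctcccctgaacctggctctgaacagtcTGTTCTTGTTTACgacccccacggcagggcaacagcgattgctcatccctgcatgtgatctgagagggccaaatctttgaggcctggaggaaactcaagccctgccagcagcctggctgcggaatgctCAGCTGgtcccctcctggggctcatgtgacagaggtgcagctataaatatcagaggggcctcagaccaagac
Each motif was searched on both strands. The glucocorticoid receptor half-site AGAACA lies on the minus strand, read as TGTTCT above, at bases 200 to 195 before the start. It is directly followed, without overlap, by the FOXO site GTAAACA, also on the minus strand and read as TGTTTAC above, at bases 194 to 188. An E-box CAGCTG, the motif of myogenic factors, lies at bases 72 to 67. Of 32851 promoters of this length, 3.17% held the FOXO site, 16.1% the half-site and 13% the E-box. Entries were found for 8 of the 9 genes (9 promoters in all), and the Trim63 promoter was the only one among them with a match. A match is a string of letters, not evidence of binding.

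Libraries held between 6182016 and 20986027 counts in total (median 10582592), and every one of the 9 genes had at least 65 counts in every library. Levels are given as CPM (library-scaled counts, from edgeR with TMM factors), and a gene was called when edgeR's quasi-likelihood test gave a Benjamini-Hochberg adjusted p below 0.05 over all genes and a fold change above 1.5. Log2 fold changes are followed by their SE. The labels place 0-day, 1-day and 1-week in batch 1 and 2-weeks in batch 2, so that 2-weeks values cannot be told apart from their batch when set against earlier ones. A list of 15 skeletal muscle genes (Acta1, Ckm and others) summed to 18790 to 151500 CPM, with no gene of the list at 0 in any library, and their mean log2 CPM is called the muscle score below. In bulk joints, fewer muscle fibres and less RNA per fibre cannot be told apart.

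All 9 genes were well measured. Over the 100 libraries, Fbxo32 ranged from 60.9 to 827 CPM (median 183) and Trim63 from 27.8 to 454 CPM (median 87.8). Their medians stood above those of 94.8% and 86% of all genes. Per kilobase of exon the medians were 26.2 CPM per kb for Fbxo32 and 46.5 for Trim63, compared with 46.4 for Smox, 44.9 for Gadd45a, 36.3 for Hk2, 14.5 for Mstn, 6.00 for Bdh1, 5.02 for Foxo1 and 4.24 for Foxo3. Both ligases had their highest group mean in injured MRL/MpJ joints at 1-day, at 471 ± 209 CPM for Fbxo32 and 245 ± 126 CPM for Trim63 (SD, n = 5). The lowest mean of Fbxo32 was that of uninjured STR/ort joints at 1-week (83.6 ± 14.0 CPM, SD, n = 4), and that of Trim63 was in injured STR/ort joints at 1-week (40.5 ± 14.7 CPM, SD, n = 5). When the 21 groups were ordered by mean, each neighbouring pair overlapped in its libraries for both genes.

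**Figure D1:**
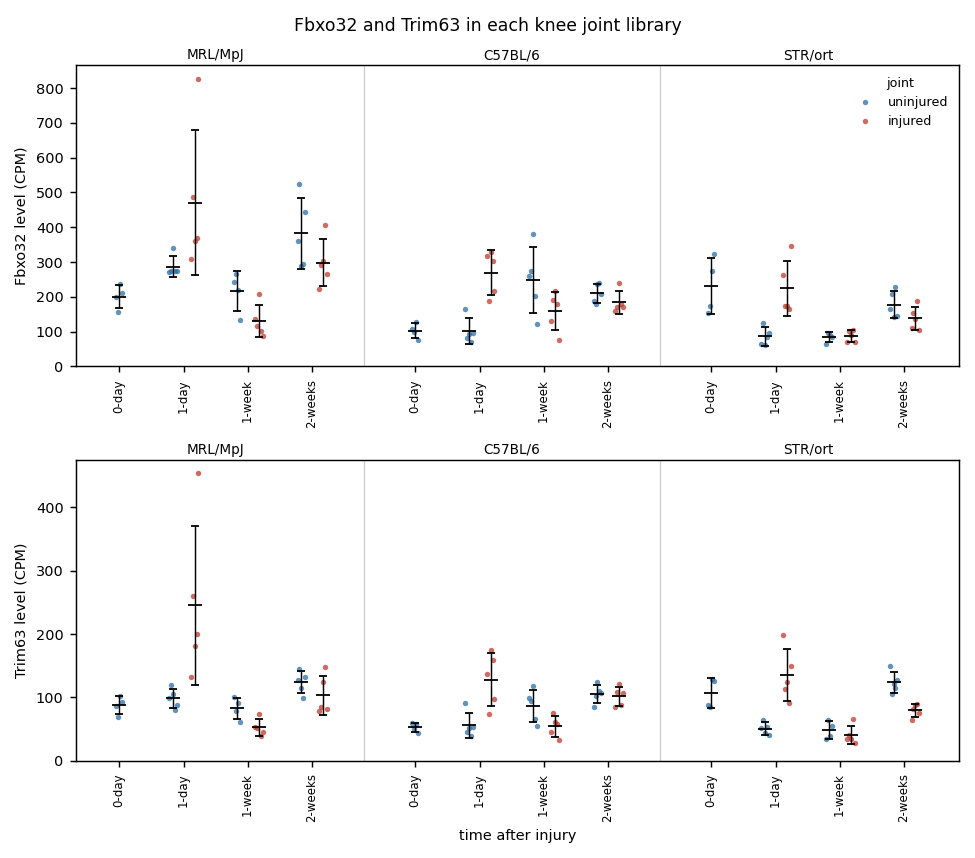
Level of Fbxo32 (top) and Trim63 (bottom) in CPM in each of the 100 libraries, by strain and time after injury. Points are libraries (blue uninjured, red injured), bars the group mean with SD; injured joints at 1-day lie above the uninjured ones of the strain, except for overlaps in MRL/MpJ for Fbxo32 (from 310.0 against up to 339.6 CPM) and in C57BL/6 for Trim63 (from 73.9 against up to 90.3 CPM), and the highest library in both panels is from an injured MRL/MpJ joint at 1-day (827 and 454 CPM).

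At 1-day post-injury, both ligases were upregulated in injured joints. Trim63 was called higher in all 3 strains, by 2.30- to 2.63-fold, and Fbxo32 in C57BL/6 and STR/ort, by 2.66- and 2.58-fold. Of the 9 genes, 2 were called in MRL/MpJ, 3 in C57BL/6 and 3 in STR/ort, while 2.02%, 5.6% and 4.31% of all genes were called in these comparisons. The median change of the 9 genes was -0.13, -0.15 and 0.07 on the log2 scale, beside 0.01, -0.02 and -0.02 for all genes.

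In C57BL/6 at 1-day, Fbxo32 measured 316, 187, 328, 302 and 216 CPM in injured joints and 165, 82.1, 93.7, 69.4 and 97.5 CPM in uninjured joints. Every injured joint lay above every uninjured joint, and the log2 fold change was 1.41 ± 0.25 (adjusted p = 0.000129). In STR/ort the injured joints gave 264, 175, 172, 166.5 and 347 CPM and the uninjured joints 65.55, 126, 60.9, 83.4 and 95.1 CPM. These groups were also separate, with a log2 fold change of 1.36 ± 0.25 (adjusted p = 0.000409). In MRL/MpJ the injured joints gave 310.0, 486, 361, 370.5 and 827 CPM and the uninjured joints 270.0, 275, 339.6, 275 and 274 CPM. Here the lowest injured joint lay below the highest uninjured joint, the log2 fold change of 0.74 ± 0.25 was not called (adjusted p = 0.0907), and it was 0.42 without the injured library at 827 CPM. The injury change of Fbxo32 did not pass the test of a difference between strains, at 0.68 ± 0.35 for C57BL/6 minus MRL/MpJ (adjusted p = 0.455), 0.63 ± 0.35 for STR/ort minus MRL/MpJ (adjusted p = 0.827) and -0.05 ± 0.35 for STR/ort minus C57BL/6 (adjusted p = 0.967).

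Trim63 at 1-day measured 131, 261, 181, 199.6 and 454 CPM in injured MRL/MpJ joints and 99.5, 119, 106, 79.85 and 87.3 CPM in uninjured ones. All injured joints were above all uninjured joints, with a log2 fold change of 1.34 ± 0.26 (adjusted p = 0.00143). In STR/ort, injured joints gave 198, 113, 125, 90.6 and 150.0 CPM and uninjured joints 51.9, 64.7, 43.2, 53.4 and 40.2 CPM, again without overlap (1.40 ± 0.27, adjusted p = 0.000613). In C57BL/6, injured joints gave 137, 73.9, 174, 158 and 97.7 CPM and uninjured joints 90.3, 45.35, 52.1, 38.95 and 53.2 CPM. A single uninjured C57BL/6 joint at 90.3 CPM lay above the lowest injured joint, and the log2 fold change was 1.20 ± 0.27 (adjusted p = 0.00152). The injury changes of Trim63 differed between strains by -0.14 to 0.19 on the log2 scale, each with an SE of 0.37.

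The muscle genes as a list did not rise with the ligases at 1-day. The muscle score of injured minus uninjured joints was -0.38 in MRL/MpJ, -0.19 in C57BL/6 and -0.64 in STR/ort, and none of the 9 injury comparisons passed (smallest adjusted p = 0.155, two-sided exact permutation test, Benjamini-Hochberg over 9). The summed muscle list ran from 59660 to 105100 CPM in injured and 83410 to 107600 CPM in uninjured MRL/MpJ joints, from 43910 to 68260 against 46310 to 105600 CPM in C57BL/6, and from 21850 to 56600 against 38850 to 68680 CPM in STR/ort. In single-gene tests the muscle list had 1 of 15 genes called higher in C57BL/6 (Myh1, lost in DESeq2) and 6 of 15 lower in STR/ort. With the muscle score as a covariate in edgeR's fit, the change of Fbxo32 was 0.98 in MRL/MpJ (now called, adjusted p = 0.000947), 1.60 in C57BL/6 and 1.80 in STR/ort, and that of Trim63 was 1.58, 1.38 and 1.88. Set against the muscle score within each library, both genes were higher in every injured joint than in every uninjured joint of each strain, by 1.01, 1.63 and 2.01 log2 units for Fbxo32 in MRL/MpJ, C57BL/6 and STR/ort and by 1.58, 1.38 and 2.02 for Trim63. Each of these 6 differences had the smallest p that 5 against 5 libraries can give (0.00794), which became 0.0643 after adjustment over 81 values, so 0 of 81 passed. At 1-day the same p was given by Gadd45a in MRL/MpJ (0.68), Smox in C57BL/6 (-0.98) and Mstn in STR/ort (-0.51).

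**Figure D2:**
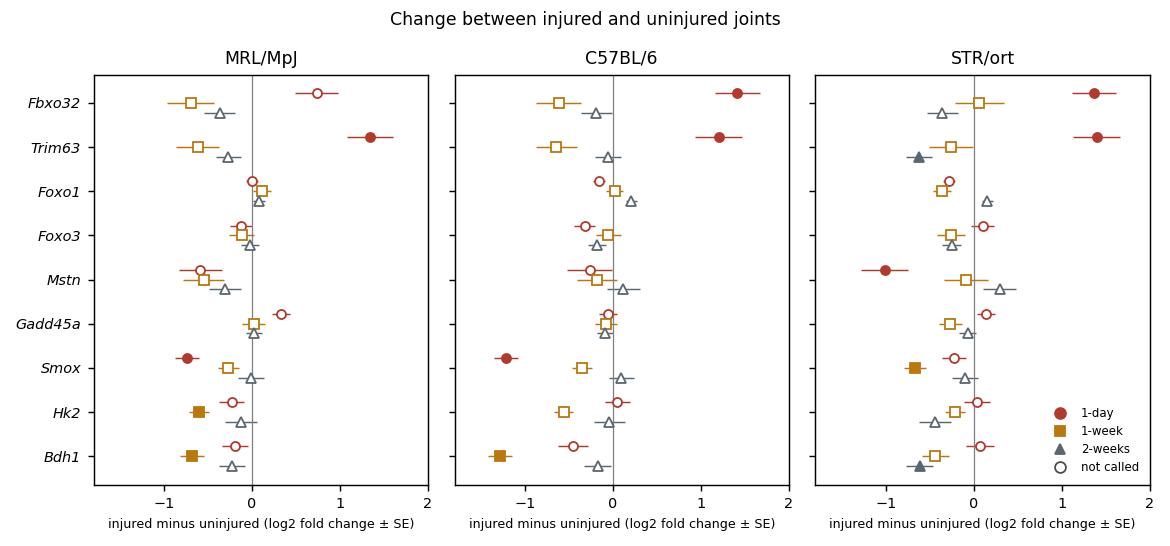
Log2 fold change of injured against uninjured joints with SE for the 9 genes, in 1 panel per strain. Circles are 1-day, squares 1-week and triangles 2-weeks, and filled symbols are called; the called increases are Fbxo32 and Trim63 at 1-day, while Smox, Mstn, Hk2, Bdh1 and, at 2-weeks, Trim63 hold the called decreases.

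Smox, the spermine oxidase gene, was downregulated at 1-day in MRL/MpJ and C57BL/6. In MRL/MpJ, injured joints gave 107.5, 92.0, 97.8, 99.3 and 92.6 CPM and uninjured joints 188, 180.4, 186, 133 and 141 CPM. In C57BL/6, injured joints gave 75.9, 76.95, 75.5, 64.55 and 73.6 CPM and uninjured joints 264, 129, 148, 156 and 152.5 CPM. Both pairs of groups were separate, with log2 fold changes of -0.74 ± 0.13 (adjusted p = 0.000495, 1.67-fold lower) and -1.21 ± 0.13 (adjusted p = 6.61e-08, 2.32-fold lower). In STR/ort, where uninjured joints were already at 47.8 to 67.8 CPM, injured joints had 45.4 to 57.7 CPM and the change of -0.22 ± 0.14 was not called (adjusted p = 0.354). The difference in injury change between STR/ort and C57BL/6 was itself called, at 0.99 ± 0.19 (adjusted p = 0.00136). It was 1 of 9 genes called in a comparison that called 2.66% of all genes, and 0 of 9 were called for C57BL/6 minus MRL/MpJ (0.318% of all genes) and STR/ort minus MRL/MpJ (0.162%). At an unadjusted p under 0.05, edgeR gave 2 of 9 in each of these, and DESeq2 called 0.

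Mstn was lower in injured STR/ort joints at 1-day, by 2.02-fold (-1.01 ± 0.27, adjusted p = 0.0118). The injured joints gave 8.71, 9.25, 13.5, 11.2 and 32.5 CPM and the uninjured joints 23.1, 33.2, 27.4, 39.3 and 26.95 CPM, so 4 injured joints lay below all uninjured ones and 1 within them. This is the comparison in which 6 muscle list genes fell, and with the muscle score as a covariate the change was -0.44 and no longer called. It was also lost with 2 RUVg factors (-0.63, adjusted p = 0.0516). The share of it that follows muscle content was not tested further. Mstn changed by -0.59 in MRL/MpJ and -0.26 in C57BL/6, neither called.

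The genes of the transcription factors hardly moved at 1-day. Foxo1 was at 30.01 to 34.3 CPM in injured and 29.85 to 34.65 CPM in uninjured MRL/MpJ joints, and its log2 fold change was -0.00051 in MRL/MpJ and -0.15 in C57BL/6. In STR/ort, Foxo1 was lower in every injured joint (36.9 to 44.0 CPM against 45.4 to 54.0 CPM, adjusted p = 0.00418), but the change of -0.28 was below the 1.5-fold threshold. Foxo3 changed by -0.13, -0.32 and 0.10 in MRL/MpJ, C57BL/6 and STR/ort, with adjusted p from 0.0657 to 0.720. Gadd45a was at 70.3 to 99.1 CPM in injured against 62.3 to 73.9 CPM in uninjured MRL/MpJ joints (0.32 ± 0.10, adjusted p = 0.0699). Over all 3 time points, Foxo1, Foxo3 and Gadd45a were called in 0 of 9 injury comparisons each.

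At 1-week post-injury, neither ligase was called, and Bdh1, Hk2 and Smox held the called changes. The counts were 2 of 9 genes in MRL/MpJ, 1 in C57BL/6 and 1 in STR/ort, all lower, beside 3.13%, 5.82% and 9.21% of all genes called. The median change of the 9 genes was -0.55, -0.35 and -0.26, beside -0.01, -0.01 and -0.03 for all genes. The muscle score was lower in injured joints by 0.36, 0.51 and 0.54 log2 units, which did not pass the exact permutation test (above), and 0, 3 and 8 of the 15 muscle genes were called lower.

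Fbxo32 at 1-week gave 136, 116, 207, 102 and 88.85 CPM in injured and 243, 266.5, 221 and 135 CPM in uninjured MRL/MpJ joints. In C57BL/6 the values were 132, 192, 217, 179 and 76.1 CPM in injured and 260.3, 273, 379.9, 203 and 123 CPM in uninjured joints. Both pairs overlapped, and the changes of -0.70 ± 0.27 (adjusted p = 0.179) and -0.61 ± 0.26 (adjusted p = 0.135) were not called. In STR/ort both joints were low, at 71.4, 103, 90.6, 104 and 69.8 CPM in injured and 63.7, 96.1, 89.1 and 85.45 CPM in uninjured joints (0.06 ± 0.28, adjusted p = 0.908). Trim63 had changes of -0.62 ± 0.24 in MRL/MpJ, -0.64 ± 0.23 in C57BL/6 and -0.26 ± 0.25 in STR/ort, none called (adjusted p = 0.193, 0.0708 and 0.521). With the replicate number as a block in edgeR, Fbxo32 was called in MRL/MpJ (-0.59, adjusted p = 0.00707) and C57BL/6 (-0.60, adjusted p = 0.000969) and Trim63 in C57BL/6 (-0.64, adjusted p = 0.00112), although in these groups joints are tied by a shared number only. The injury change of Fbxo32 in STR/ort minus MRL/MpJ (0.76 ± 0.39, adjusted p = 0.419) and minus C57BL/6 (0.67 ± 0.38, adjusted p = 0.513) was likewise called only with the block (0.73 and 0.74). Set against the muscle score within each library, Fbxo32 differed by -0.39, -0.13 and 0.61 log2 units and Trim63 by -0.31, -0.17 and 0.27 in MRL/MpJ, C57BL/6 and STR/ort, with opposite signs in STR/ort and the other strains. The STR/ort differences had p = 0.0238 and 0.0317 and the Trim63 difference of MRL/MpJ p = 0.0317 (two-sided exact permutation test), and none of the 3 passed after adjustment over 81 values (adjusted p = 0.0952 for each).

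Bdh1 was lower in injured joints at 1-week. In C57BL/6 it gave 8.96, 10.7, 11.2, 11.6 and 10.2 CPM in injured and 22.9, 36.5, 24.4, 27.1 and 20.45 CPM in uninjured joints, without overlap (-1.28 ± 0.13, adjusted p = 3.41e-08, 2.43-fold lower). In MRL/MpJ it gave 20.1, 21.45, 17.5, 15.8 and 16.4 CPM against 32.9, 33.3, 26.5 and 26.6 CPM, also without overlap (-0.68 ± 0.13, adjusted p = 0.00111, 1.60-fold lower). In STR/ort the injured joints lay at 7.78 to 9.96 CPM and the uninjured at 9.46 to 15.1 CPM, and the change of -0.44 ± 0.15 was under the fold threshold (adjusted p = 0.0391). The C57BL/6 change held with the muscle score as a covariate (-1.13), while that of MRL/MpJ was then -0.58 and no longer called. It was also lost with 2 RUVg factors (-0.48, adjusted p = 0.0545). The injury change of STR/ort minus C57BL/6 was 0.84 ± 0.20 (adjusted p = 0.0490), called as 1 of 9 genes beside 0.491% of all genes, and it was lost in 18 of 27 alternative settings. For C57BL/6 minus MRL/MpJ and STR/ort minus MRL/MpJ, 0 of 9 were called (0% and 0.884% of all genes), with 1 and 3 at an unadjusted p under 0.05 in edgeR and 0 calls in DESeq2.

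Hk2 was lower in every injured joint of MRL/MpJ (166, 149, 192, 132 and 151 CPM against 260.4, 265, 243 and 213 CPM) by 1.52-fold (-0.60 ± 0.11, adjusted p = 0.000488). This call sits close to the threshold and was lost without any one of injured libraries 2 and 4 or uninjured libraries 1 and 2, and also with 1 RUVg factor (-0.50), 2 factors (-0.36) and the muscle score (-0.46). In C57BL/6, Hk2 was also lower in every injured joint (129.9 to 159.9 CPM against 170.3 to 258.5 CPM, adjusted p = 0.000320), at 1.47-fold under the threshold. Smox was lower in STR/ort, at 39.2, 50.9, 51.2, 50.7 and 44.8 CPM in injured against 64.1, 84.7, 89.9 and 61.6 CPM in uninjured joints (-0.67 ± 0.12, adjusted p = 0.000177, 1.59-fold lower). The Smox change was not called without uninjured library 3 (-0.56), with 2 RUVg factors (-0.53) or with the muscle score (-0.55).

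At 2-weeks, called changes were limited to STR/ort, where Trim63 and Bdh1 were lower. In MRL/MpJ, C57BL/6 and STR/ort, 0, 0 and 2 of 9 genes were called, beside 1.16%, 2.95% and 4.66% of all genes. In MRL/MpJ and C57BL/6, edgeR gave 1 of 9 each at an unadjusted p under 0.05 (Fbxo32 and Foxo1), and DESeq2 called 0. Trim63 gave 64.2, 82.3, 88.3, 88.9 and 74.8 CPM in injured and 149.5, 106, 121, 115 and 127 CPM in uninjured STR/ort joints, without overlap (-0.63 ± 0.15, adjusted p = 0.00337, 1.54-fold lower). The muscle score of these groups differed by -0.06. Without injured library 1 or uninjured library 1 the change was -0.56 or -0.55 and fell under the fold threshold. Bdh1 gave 17.7, 18.4, 30.4, 15.5 and 15.8 CPM against 29.5, 31.1, 24.9, 34.0 and 31.3 CPM, with 1 injured joint among the uninjured ones (-0.62 ± 0.15, adjusted p = 0.00465, 1.53-fold lower), and it fell under the threshold without any one of injured libraries 1, 4 and 5 or uninjured library 4.

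In the other strains at 2-weeks, Fbxo32 gave 224, 291, 303, 405.5 and 265 CPM in injured and 362, 525, 289, 293.5 and 443 CPM in uninjured MRL/MpJ joints (-0.37 ± 0.18, adjusted p = 0.639). In C57BL/6 it gave 161, 170.0, 241, 179 and 170.4 CPM against 187, 179, 237, 239 and 207 CPM (-0.19 ± 0.18, adjusted p = 0.591). The groups overlapped in both strains. Set against the muscle score within each library, Fbxo32 differed by -0.28, -0.36 and -0.31 log2 units in MRL/MpJ, C57BL/6 and STR/ort and Trim63 by -0.23, -0.22 and -0.58. On this scale every injured C57BL/6 joint lay below every uninjured one for Fbxo32, at the smallest p the exact permutation test can give (p = 0.00794, adjusted p = 0.0643), so it did not pass after adjustment. The test shuffled libraries freely, although the labels give the same animal for both joints of a 2-weeks pair. edgeR's main fit also left out this pairing. In C57BL/6, Foxo1 was higher in every injured joint (61.0 to 72.7 CPM against 55.8 to 59.4 CPM), at 0.21 ± 0.06 and adjusted p = 0.0383, under the fold threshold. For the 3 strain differences of the injury change at 2-weeks, 0 of 9 genes were called in each (0%, 0.451% and 0.0462% of all genes), with 0, 1 and 2 at an unadjusted p under 0.05 in edgeR and 0 calls in DESeq2.

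**Figure D3:**
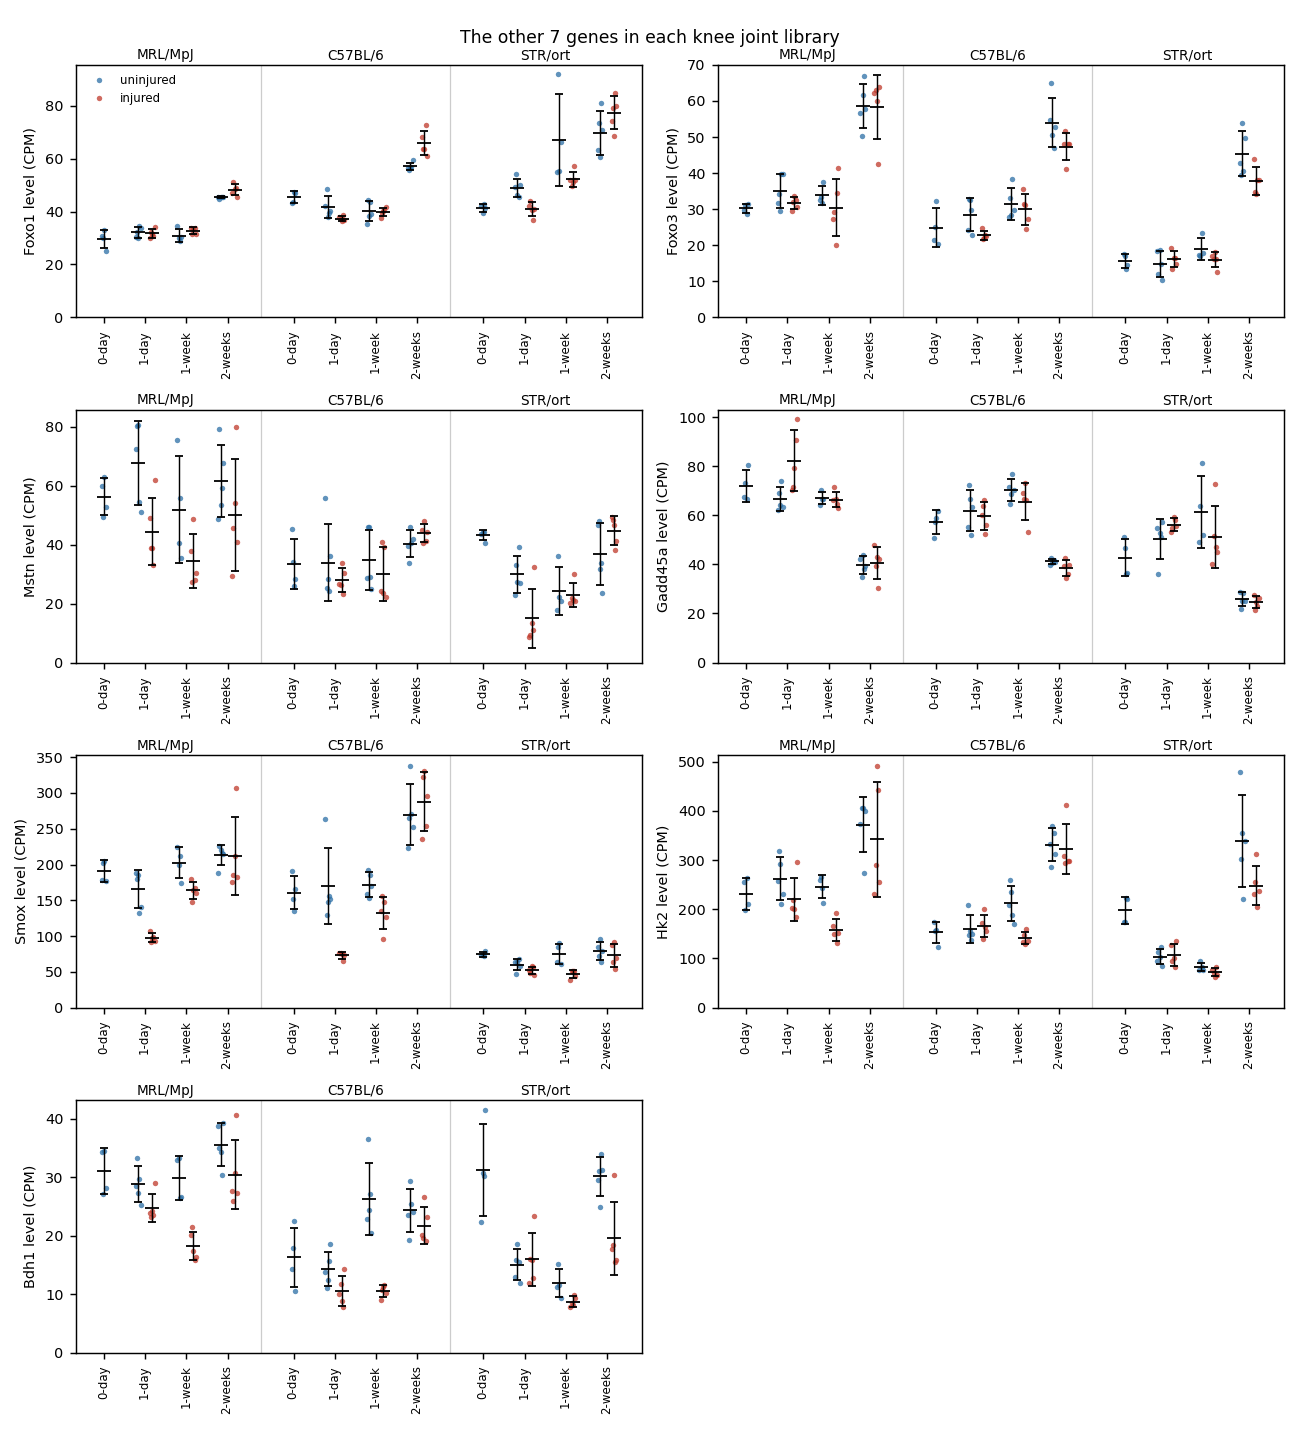
Level of the other 7 genes in CPM in each library, by strain and time after injury (blue uninjured, red injured; bars are mean with SD). Injured joints at 1-day lie below uninjured ones for Smox in MRL/MpJ and C57BL/6, and at 1-week for Bdh1 in the same strains; 2-weeks is a separate batch.

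Within batch 1, injured joints were compared between 1-week and 1-day. Fbxo32 fell in all 3 strains, by 1.83 ± 0.27 log2 units in MRL/MpJ (adjusted p = 5.6e-07), 0.76 ± 0.26 in C57BL/6 (adjusted p = 0.0364) and 1.37 ± 0.27 in STR/ort (adjusted p = 3.18e-05). Trim63 fell by 2.20 ± 0.26 (adjusted p = 9.88e-10), 1.23 ± 0.25 (adjusted p = 0.000279) and 1.75 ± 0.26 (adjusted p = 9.77e-08), or 4.59-, 2.35- and 3.36-fold. In MRL/MpJ and STR/ort every 1-week joint lay below every 1-day joint for both genes, while the C57BL/6 groups overlapped and the Fbxo32 call there was lost without any one of injured libraries 1, 3 and 4 of 1-day or 1 and 5 of 1-week (-0.58 to -0.71). Smox rose again in MRL/MpJ (0.77 ± 0.12, adjusted p = 3.32e-06) and C57BL/6 (0.86 ± 0.12, adjusted p = 4.14e-07), with no overlap, and was at -0.15 in STR/ort. In STR/ort, Hk2 fell by 0.59 ± 0.13 (a call lost in 7 of 17 settings) and Bdh1 by 0.87 ± 0.18. In these 3 comparisons 3, 3 and 4 of 9 genes were called, beside 3.11%, 4.47% and 13.9% of all genes.

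The uninjured contralateral joints also moved with time in 2 strains. In STR/ort, 4 of 9 genes were called lower at 1-day than at 0-day, in a comparison that called 9.92% of all genes. The libraries of 7 of 9 genes, these 4 among them, did not overlap, and the share of all genes without overlap was not counted. Fbxo32 fell from 231 ± 81.1 CPM (SD, n = 4, libraries at 155, 173, 274 and 324 CPM) to 86.2 ± 26.2 CPM (SD, n = 5), a log2 fold change of -1.43 ± 0.28 (adjusted p = 6.42e-05). Trim63 fell from 107 ± 23.7 to 50.7 ± 9.64 CPM (-1.08 ± 0.26, adjusted p = 0.0012), Hk2 by 0.93 ± 0.14 and Bdh1 by 1.05 ± 0.17. All 15 muscle list genes were called lower in the same comparison (median -1.16), the muscle score went from 12.05 to 12.3 at 0-day to 10.55 to 11.4 at 1-day over the libraries, and with the muscle score as a covariate none of the 4 remained called (Fbxo32 -0.33, Trim63 0.02), nor with 1 or 2 RUVg factors (Fbxo32 0.02 and -0.08, Trim63 0.255 and 0.17). In C57BL/6, 2 of 9 genes were higher at 1-week than at 1-day (4.83% of all genes): Fbxo32 by 1.27 ± 0.27 (adjusted p = 0.00042) and Bdh1 by 0.83 ± 0.16 (adjusted p = 0.000132). Both held with the muscle score as a covariate (0.90 and 0.65), and all 6 slow muscle genes were called higher there (median 1.81). In the other 4 comparisons of uninjured joints over time, 0 of 9 genes were called: 1-day against 0-day in MRL/MpJ (0.0924% of all genes) and C57BL/6 (0.0693%), and 1-week against 1-day in MRL/MpJ (0.0751%) and STR/ort (1.82%). At an unadjusted p under 0.05, edgeR gave 0, 0, 1 and 5 of the 9 in the order of these comparisons, and DESeq2 called 0 in each.

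Before injury, C57BL/6 joints had the lowest ligase levels. Fbxo32 at 0-day was 107, 99.1, 129 and 76.9 CPM in C57BL/6, 199, 156, 236 and 210.5 CPM in MRL/MpJ and 155, 173, 274 and 324 CPM in STR/ort. Every C57BL/6 joint lay below every joint of the other strains, at -0.91 ± 0.20 against MRL/MpJ (adjusted p = 0.00122), and STR/ort exceeded C57BL/6 by 1.13 (adjusted p = 0.000211). Trim63 was 52.7 ± 7.04 CPM in C57BL/6, 87.5 ± 13.8 CPM in MRL/MpJ and 107 ± 23.7 CPM in STR/ort (SD, n = 4), with differences of -0.68 (adjusted p = 0.000905) and 0.98 (adjusted p = 3.03e-05). The muscle list was called lower in C57BL/6 than in MRL/MpJ for 15 of 15 genes (median -0.84) and higher in STR/ort than in C57BL/6 for 13 of 15 (median 0.85), and with the muscle score as a covariate neither ligase was called (Fbxo32 0.20 and 0.06, Trim63 0.07 and 0.27), nor with 1 RUVg factor (-0.44 and 0.47, -0.36 and 0.54) or 2 factors (-0.17 and 0.28, -0.32 and 0.51). Of the 9 genes, 5 were called for C57BL/6 against MRL/MpJ, 3 for STR/ort against MRL/MpJ and 5 for STR/ort against C57BL/6, beside 15.9%, 14.8% and 13.8% of all genes. In total 4 of these 13 calls were higher and 9 lower, a split that became 1 and 7 with 1 RUVg factor, 0 and 4 with 2 factors and 1 and 5 with the muscle score.

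Smox and Foxo3 were lower in STR/ort joints before injury than in C57BL/6 and MRL/MpJ. Smox was 73.0, 74.2, 71.7 and 79.5 CPM in STR/ort, 179, 203, 205 and 177 CPM in MRL/MpJ and 190.3, 152, 136 and 166 CPM in C57BL/6. It was lower in STR/ort by 1.35 log2 units against MRL/MpJ (adjusted p = 2.54e-09) and 1.15 against C57BL/6 (adjusted p = 3.01e-08), without overlap, and both calls held in all 15 alternative settings. Foxo3 was 15.6 ± 1.90 CPM in STR/ort against 30.3 ± 1.20 CPM in MRL/MpJ and 24.8 ± 5.41 CPM in C57BL/6 (SD, n = 4), at -0.95 and -0.71. The second of these calls was lost with 2 RUVg factors, with the muscle score and without C57BL/6 library 3 (-0.87, -0.88 and -0.55). Gadd45a was lower in STR/ort than in MRL/MpJ (-0.74, adjusted p = 2.8e-05), and Foxo1 was higher in C57BL/6 than in MRL/MpJ (0.65, adjusted p = 6.22e-06, lost with 2 RUVg factors). Mstn (-0.71) and Bdh1 (-0.88) were lower in C57BL/6 than in MRL/MpJ, and Bdh1 was higher in STR/ort than in C57BL/6 (0.88). These 3 calls were lost with 2 RUVg factors (-0.39, 0.019 and 0.084) and with the muscle score (-0.17, 0.26 and -0.19), the last of them also with 1 RUVg factor (0.51).

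In uninjured contralateral joints, the comparison of STR/ort with MRL/MpJ had the most calls among the 9 genes at each time. At 1-day, at 1-week and at 2-weeks, 8, 8 and 5 of 9 genes were called for STR/ort against MRL/MpJ (22.6%, 24.4% and 13.8% of all genes), with 7, 7 and 4 lower and Foxo1 the 1 gene higher each time. Fbxo32 was 3.23-fold lower at 1-day (-1.69 ± 0.25, adjusted p = 2.14e-06), 2.55-fold lower at 1-week (-1.35 ± 0.29) and 2.16-fold lower at 2-weeks (-1.11 ± 0.18), without overlap at any time. Trim63 was lower at 1-day (-0.91) and 1-week (-0.75) but at -0.01 at 2-weeks, and the 1-week call was lost without MRL/MpJ library 1 or STR/ort library 1 or 3 (-0.65, -0.63 and -0.67). Smox was lower by 1.41, 1.41 and 1.44 log2 units, again without overlap. Foxo1 was higher by 0.65 (adjusted p = 2.45e-09), 1.14 (adjusted p = 1.11e-09) and 0.62 (adjusted p = 8.76e-09), with 45.4 to 54.0, 55.0 to 92.1 and 60.45 to 80.98 CPM in STR/ort against 29.85 to 34.65, 28.7 to 34.6 and 44.8 to 45.7 CPM in MRL/MpJ.

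Muscle RNA differed between the same joints. The muscle score of uninjured joints ran from 10.55 to 11.4 in STR/ort against 11.9 to 12.3 in MRL/MpJ at 1-day, from 10.4 to 11.2 against 11.9 to 12.4 at 1-week, and from 11.6 to 12.3 against 11.9 to 12.3 at 2-weeks. With it as a covariate the difference of Fbxo32 was -0.77 at 1-day (adjusted p = 0.0261), -0.07 at 1-week (adjusted p = 0.906) and -0.996 at 2-weeks (adjusted p = 1.34e-06), and that of Trim63 was -0.03, 0.71 and 0.09. Smox (-1.16, -1.11 and -1.35) and Foxo1 (0.63, 1.37 and 0.60) stayed called at all 3 times. The Foxo1 call of 2-weeks was lost with 2 RUVg factors (0.53) and without STR/ort library 4 (0.55), and the Fbxo32 call of 1-day under RUVg (-0.38 and -0.57). Under RUVg with 1 or 2 factors the sign of Trim63 at 1-day and of Fbxo32 and Trim63 at 1-week turned. How much of the strain difference of the ligases follows muscle content was not tested beyond these values.

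**Figure D4:**
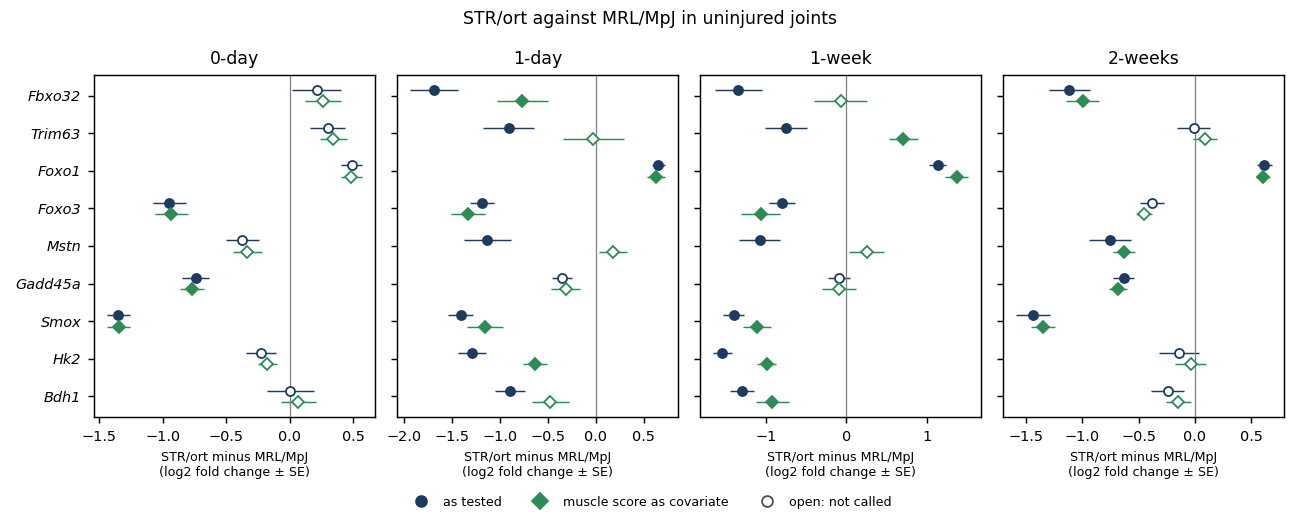
Log2 fold change with SE of STR/ort against MRL/MpJ uninjured joints for the 9 genes, in 1 panel per time (axes differ in range). Dark circles are the test as reported, green diamonds the same with the muscle score as a covariate, and open symbols are not called; Smox is called both ways at all 4 times, while Fbxo32 and Trim63 at 1-week lie at -0.07 and 0.71 with the covariate.

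Between C57BL/6 and MRL/MpJ, uninjured joints had 5, 0 and 2 of 9 genes called at 1-day, at 1-week and at 2-weeks (14.8%, 8.53% and 9.83% of all genes), all lower in C57BL/6. At 1-week 2 of 9 had an unadjusted p under 0.05 in edgeR, and DESeq2 called 0. Fbxo32 was among them at 1-day (-1.47 ± 0.25, adjusted p = 3.03e-05, without overlap) and 2-weeks (-0.87 ± 0.18, adjusted p = 0.000429). Between STR/ort and C57BL/6, 3, 7 and 2 of 9 were called (10.5%, 22.2% and 9.78% of all genes). At 1-week Fbxo32 was lower in STR/ort by 1.55 ± 0.28 (adjusted p = 5.41e-05, 2.93-fold) and Trim63 by 0.83 ± 0.25 (adjusted p = 0.0081), while at 1-day neither was called (-0.22 and -0.12). Both 1-week calls were lost with 1 RUVg factor, 2 factors and the muscle score, at -0.16, -0.034 and -0.50 for Fbxo32 and, with the sign turned, 0.315, 0.43 and 0.34 for Trim63. Over the 9 comparisons of uninjured joints, 4 calls were higher and 36 lower, and the split was 6 and 21 with 1 RUVg factor and 5 and 20 with 2.

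In injured joints most strain calls were again lower in the first-named strain. Among the exceptions, Bdh1 was called higher in STR/ort than in C57BL/6 at 1-day (0.586), while no Bdh1 call in contralateral joints was higher. STR/ort against MRL/MpJ called 7, 6 and 6 of 9 genes at 1-day, at 1-week and at 2-weeks (20.3%, 29.5% and 18.9% of all genes), C57BL/6 against MRL/MpJ 4, 1 and 1 (16.3%, 9.47% and 11.5%) and STR/ort against C57BL/6 3, 4 and 2 (12.4%, 25.1% and 10.4%). Fbxo32 was lower in STR/ort than in MRL/MpJ at 1-day (-1.06 ± 0.25, adjusted p = 0.000713) and 2-weeks (-1.10 ± 0.18, adjusted p = 7.51e-06) and missed the threshold at 1-week (-0.59 ± 0.26, adjusted p = 0.0575). At 1-day the injured groups of MRL/MpJ and STR/ort overlapped, and with the muscle score as a covariate the Fbxo32 difference was 0.05 (0.297 and 0.24 with 1 and 2 RUVg factors), not called. Fbxo32 and Trim63 were called lower in C57BL/6 than in MRL/MpJ at 1-day (-0.79 and -0.93), but without the MRL/MpJ library at 827 CPM of Fbxo32 the values were -0.49 and -0.58 and neither was called. Both calls were also lost with 1 RUVg factor (-0.22 and -0.26), 2 factors (-0.27 and -0.29) and the muscle score (-0.31 and -0.46). The Trim63 call of STR/ort against MRL/MpJ (-0.86) was lost without the same library (-0.495), and with 1 RUVg factor, 2 factors and the muscle score its sign turned (0.74, 0.71 and 0.27). Smox was lower in STR/ort than in MRL/MpJ by 0.90 (lost under RUVg and with the muscle score, -0.56 to -0.58), 1.80 and 1.53 log2 units, and Bdh1 was lower in C57BL/6 than in MRL/MpJ by 1.218 at 1-day and 0.79 at 1-week, the latter lost with 2 RUVg factors (-0.55). Over the 9 comparisons of injured joints 3 calls were higher and 31 lower, and the split was 6 and 17, 7 and 16, and 8 and 16 with 1 RUVg factor, 2 factors and the muscle score.

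The ligases followed the muscle genes from library to library. After group means were subtracted, the correlation with the muscle score over the 100 libraries was r = 0.658 for Fbxo32 (Spearman's rho 0.613) and r = 0.707 for Trim63 (rho 0.707), and it was 0.635 and 0.729 without the 2 libraries farthest on the muscle score. Mstn (0.857), Hk2 (0.73) and Bdh1 (0.505) were also positively related, Smox less so (0.4), and Foxo1 (0.0908), Gadd45a (-0.138) and Foxo3 (-0.274) were not or were inversely related. The libraries share the same joint sample and scaling for both measures, so these values describe the libraries only. In the plot of Fbxo32 level against muscle score, injured C57BL/6 libraries 2 and 5 of 1-day (7.55 and 7.75 log2 CPM at scores of 11.04 and 11.14) lie below injured library 3 of 1-week (7.77 at 11.08).

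**Figure D5:**
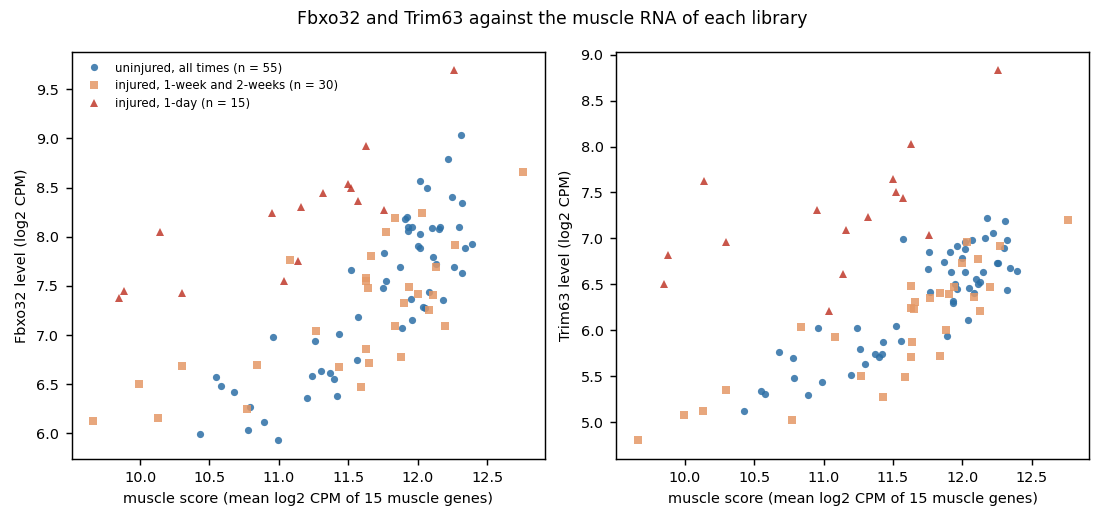
Log2 CPM of Fbxo32 (left) and Trim63 (right) against the muscle score, the mean log2 CPM of 15 muscle genes, for each library. Blue circles are uninjured joints (n = 55), orange squares injured joints at 1-week and 2-weeks (n = 30) and red triangles injured joints at 1-day (n = 15). Levels rise along the score, and for Fbxo32 a pair of injured C57BL/6 libraries of 1-day (7.55 and 7.75) lies below one of 1-week (7.77).

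Fbxo32 and Trim63 were among each other's closest genes. Within groups their correlation over 100 libraries was r = 0.81, and over the 21 group means it was 0.891. By within-group correlation, the 5 genes nearest to Fbxo32 were Klhl38 (0.834), Trim63 (0.81), Lrrc2 (0.768), Ankrd23 (0.767) and Reep1 (0.766), and over group means they were Klhl38 (0.915), Lrrc2 (0.909), Trim63 (0.891), Usp14 (0.848) and Art5 (0.843). Those nearest to Trim63 were Ankrd23 (0.839), Lrrc2 (0.817), Fbxo32 (0.81), Asb5 (0.802) and Mapt (0.8) within groups, and Fbxo32 (0.891), Cnksr1 (0.878), Art5 (0.877), Hspb7 (0.872) and Myod1 (0.861) over group means. Of the other pairs of the 9 genes, Foxo3 and Hk2 (0.881), Hk2 and Bdh1 (0.823) and Foxo1 and Gadd45a (-0.815) were the most closely related over group means, which include the batch of 2-weeks. All these values share libraries and depth and are descriptions.

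As background for the counts of the gene lists, 1.53%, 4.26% and 1.61% of all genes were called higher at 1-day, 2.93%, 4.75% and 5.67% at 1-week and 1.14%, 2.88% and 4.34% at 2-weeks in MRL/MpJ, C57BL/6 and STR/ort. Those called lower were 0.497%, 1.34% and 2.7% at 1-day, 0.191%, 1.07% and 3.54% at 1-week and 0.0173%, 0.0693% and 0.318% at 2-weeks. None of 12 ubiquitin and proteasome genes was called in any of the 9 injury comparisons, with list medians of -0.11 to 0.18; DESeq2 called 0. At an unadjusted p under 0.05, edgeR gave 1, 7 and 5 of the 12 at 1-day in MRL/MpJ, C57BL/6 and STR/ort, 3, 4 and 0 at 1-week and 1, 1 and 2 at 2-weeks. Of 14 autophagy genes of the FOXO program, edgeR called 1 over the 9 comparisons, Ctsl (cathepsin L) at 1-day in C57BL/6 (0.65, adjusted p = 1.05e-06), and DESeq2 called 1 more, at 1-week in STR/ort. Of 12 other muscle ubiquitin ligases, none was called higher. Asb2, which acts on muscle mass, was lower at 1-week in MRL/MpJ (-0.73), C57BL/6 (-0.70) and STR/ort (-0.80), and these calls were lost with 2 RUVg factors and with the muscle score. Trim55, the MuRF2 gene, was lower at 1-day in STR/ort (-1.38), the comparison in which muscle genes were called lower. The Trim55 call held in all 8 settings (-1.41 to -0.74), which include RUVg and the muscle score as a covariate. Fbxo40 was lower at 1-week in STR/ort (-0.70, lost under RUVg and with the muscle score).

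Among 11 other FOXO factors and targets, Pdk4, which limits glucose oxidation, rose at 1-day in C57BL/6 (0.90) and STR/ort (1.498), and Cdkn1a, the p21 cell cycle inhibitor, in MRL/MpJ (0.63). Foxo6 was lower in STR/ort at 1-day (-1.08), a call lost under RUVg and with the muscle score. At 1-week edgeR and DESeq2 called none of the 11 (1, 5 and 4 at an unadjusted p under 0.05 in edgeR), and at 2-weeks 1 was, Cdkn1a in C57BL/6 (0.59, lost with RLE scaling, DESeq2 and the block). The list medians ran from -0.18 to 0.01.

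Of 13 glucocorticoid-induced genes, 3 were called higher at 1-day in each strain, beside 1.53%, 4.26% and 1.61% of all genes. The metallothionein gene Mt2 rose by 3.16, 2.35 and 2.84 log2 units in MRL/MpJ, C57BL/6 and STR/ort (adjusted p = 8.02e-09, 2.31e-07 and 1.36e-08), Mt1 by 2.02 in MRL/MpJ and 1.92 in STR/ort, and Angptl4, a lipoprotein lipase inhibitor, by 1.97 in C57BL/6. Klf15, a factor of the glucocorticoid response in muscle, was lower in STR/ort at 1-day (-1.10), a call lost under RUVg and with the muscle score. At 1-week 2, 3 and 1 genes were higher and 0, 0 and 2 lower in MRL/MpJ, C57BL/6 and STR/ort, and at 2-weeks 0, 1 and 3 were higher. The 1 gene of C57BL/6 at 2-weeks was Angptl4 (0.59), lost with RLE scaling, DESeq2 and the replicate block, and the Mt2 call of MRL/MpJ at 1-week (0.81) was lost with 1 RUVg factor. The 2 genes lower at 1-week in STR/ort were Zbtb16 (-0.85) and Klf15 (-0.77), both lost with 2 RUVg factors and the muscle score, and Angptl4 was among the higher ones at 1-week (0.85, 0.80 and 1.19, the first lost with 2 RUVg factors). The list medians at 1-day were 0.12, 0.14 and 0.10.

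In the myostatin and activin pathway (15 genes), 2 genes were called higher in each strain at 1-day (1.53%, 4.26% and 1.61% of all genes). Inhba, the activin A subunit, rose by 1.18, 0.86 and 1.68 log2 units in MRL/MpJ, C57BL/6 and STR/ort, together with the activin antagonists Fst in MRL/MpJ (0.60) and Fstl3 in C57BL/6 (0.88) and STR/ort (1.21). The Fst call was lost with 1 RUVg factor and with the muscle score, and that of Fstl3 in C57BL/6 with the replicate block. At 1-week 1, 1 and 2 and at 2-weeks 0, 0 and 1 were higher, and none was lower at any time. Inhba rose at 1-week by 0.68, 0.81 and 1.87 and at 2-weeks in STR/ort by 1.219, of which the MRL/MpJ call was lost with 2 RUVg factors and with the muscle score. The second STR/ort gene at 1-week was Fstl3 (0.79), lost with the muscle score.

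Of 11 genes of the IGF1 to mTOR pathway, which opposes atrophy, Igf1 was the only one called in the 9 injury comparisons. It rose by 0.87 at 1-day in C57BL/6 (adjusted p = 3.21e-07), by 1.49, 1.68 and 1.62 at 1-week in MRL/MpJ, C57BL/6 and STR/ort, and by 0.84, 1.29 and 1.64 at 2-weeks. At 1-week its level was 218 against 79.2 CPM in MRL/MpJ, 252 against 80.0 CPM in C57BL/6 and 508 against 165 CPM in STR/ort. These calls held in all 8 settings tried for each.

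Among 11 denervation and ATF4 genes, 1, 6 and 1 were higher at 1-day (1.53%, 4.26% and 1.61% of all genes), 0, 1 and 4 at 1-week (2.93%, 4.75% and 5.67%) and 0, 1 and 1 at 2-weeks (1.14%, 2.88% and 4.34%) in MRL/MpJ, C57BL/6 and STR/ort, with none lower. Chrna1, the muscle acetylcholine receptor subunit, rose at 1-day by 0.97, 2.03 and 0.98 log2 units (10.3 against 5.30, 14.4 against 3.60 and 7.43 against 3.69 CPM) and at 1-week in STR/ort by 2.11. Chrng, the fetal subunit, was called at 1-day in C57BL/6 (2.69) and at 1-week in STR/ort (2.86), from levels under 1 CPM, both lost in DESeq2 and with the replicate block. Of 10 polyamine genes beside Smox, Amd1, which makes the aminopropyl donor, was lower at 1-day in all strains (-0.79, -1.001 and -0.82), the last lost with the muscle score. Azin2, an antizyme inhibitor, rose at 1-week (1.05, 1.59 and 1.82) and 2-weeks (0.76, 0.74 and 1.72). Azin2 was also higher at 1-day in C57BL/6 (1.10), and Amd1 was lower again at 1-week in STR/ort (-0.75, lost with 2 RUVg factors and the muscle score).

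Of 10 genes of glucose entry and glycogen, 0, 1 and 1 were higher and 1, 1 and 5 lower at 1-day, and 0, 0 and 1 higher and 1, 4 and 5 lower at 1-week. Ppargc1a, the mitochondrial coactivator, fell at 1-day by 1.06 in MRL/MpJ and 1.47 in STR/ort, and Slc2a4, the insulin-responsive glucose transporter, fell in STR/ort by 1.03 (lost with the muscle score). Slc2a1, the ubiquitous transporter, rose at 1-day in C57BL/6 (0.80) and STR/ort (0.63, lost with the muscle score). At 2-weeks edgeR called none in any strain, with 0, 2 and 5 genes at an unadjusted p under 0.05, while DESeq2 called 1 in STR/ort. Of 12 genes of ketone body and fatty acid use, beside Bdh1, Ppara fell at 1-day in MRL/MpJ (-1.01) and at 1-week in C57BL/6 (-1.05), where Acadm also fell (-0.59, lost under RUVg and with the muscle score).

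Markers of other joint tissues moved in the same comparisons, and their part in the results was not tested. Of 6 fibroblast markers, 1, 2 and 0 were higher at 1-day, 5, 6 and 3 at 1-week and 4, 4 and 5 at 2-weeks in MRL/MpJ, C57BL/6 and STR/ort, and of 6 macrophage markers 1, 3 and 1, 1, 1 and 0, and 0, 0 and 1. Prg4, the lubricin gene of the synovial and cartilage surface, rose at 1-day by 0.79 in MRL/MpJ and 0.88 in C57BL/6, and Cd14 by 0.92, 1.07 and 1.20. Of 6 fat markers 0, 1 and 4 were lower at 1-day and 0, 2 and 2 at 1-week. Of 6 slow muscle genes, 6 were lower in C57BL/6 and 4 in STR/ort at 1-week, with list medians of -1.75 and -1.49. Of 6 cartilage markers, 1, 2 and 1 were higher at 1-week and 1, 2 and 3 at 2-weeks, and 1 was lower in STR/ort at 1-day (lost under RUVg and with the muscle score). Of 6 bone markers 1 was lower in C57BL/6 and 3 in STR/ort at 1-week and 1 in STR/ort at 2-weeks (lost under RUVg and with the replicate block), of 6 neutrophil markers 2 were lower in STR/ort at 1-week (0 with RLE scaling and DESeq2, 6 with 2 RUVg factors and with the muscle score), and none of the 4 erythroid markers measured was called (16 values with an unadjusted p under 0.05 in edgeR, 0 DESeq2 calls).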

How the data were processed

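Whole knee joints were sequenced as poly(A) RNA in 100 libraries. The deposited values are read counts per RefSeq gene. Per the study's methods, the authors aligned the reads to mm10 with TopHat2 2.0.11 and counted them with featureCounts. Of the 17313 rows, 3 repeated names were dropped and 24 names changed to dates were kept as listed, which left 17310 genes. Counts as deposited were tested with edgeR 4.0.16 in R 4.3.3 (TMM scaling, quasi-likelihood test, Benjamini-Hochberg adjustment over all genes, adjusted p below 0.05 and fold above 1.5, as in the study). Genes with at least 2 counts in 5 libraries were kept, which removed 0. Each time point was fitted on its own with a mean per strain and joint, and time comparisons used the 70 libraries of batch 1. The authors normalized with RUVSeq on 25 housekeeping genes, with a number of factors not given in the sources used here, so RUVg with 1 and 2 factors was an alternative, with RLE scaling, DESeq2 1.42.0, no filter, filterByExpr, the muscle score as a covariate, the replicate number as a block and each library left out.

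Totals of 6182016 to 20986027 counts limit the precision, and with 4 or 5 libraries per group, changes small beside the spread between libraries may have been missed. Outside 2-weeks the labels name no animal for a library, so p-values measure only the spread between these samples, which may be partly technical. Of 190 replicate pairs, 0 were identical. Kit strandedness is not given in the sources used here, so reads of overlapping antisense genes cannot be told apart. The joints of a 2-weeks pair come from the same animal per the labels. There, deviations of the pairs correlated at r = -0.161 to 0.0755 in MRL/MpJ, 0.133 to 0.215 in C57BL/6 and 0.139 to 0.262 in STR/ort, and at 1-week all 4 STR/ort pairs reached 0.102 to 0.231.

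The 9 genes, 11 pathway lists and 9 marker lists (192 of 194 genes measured) were chosen with earlier results of these data known. Named beside the 9 genes are, for each list and injury comparison, up to 2 called genes per direction with the largest fold, and the 5 genes most correlated with each ligase. A few genes that this rule names are not reported here. Coordinates and the promoter are from RefSeq (GRCm38.p6), exon lengths from the GENCODE basic annotation. Scripts were tested on simulated counts.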

Additional observations from a re-analysis of the deposited data

Results flagged for a closer look

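In 17 of 189 groups of 4 or 5 libraries, the highest or lowest library stood apart from the rest by Dixon's criterion, which chance gives in about 5% of groups. Fbxo32 was at 339.6 CPM in uninjured library 3 of MRL/MpJ at 1-day (the others 270.0 to 275) and at 241 CPM in injured library 3 of C57BL/6 at 2-weeks (161 to 179). Trim63 was at 90.3 CPM in uninjured library 1 of C57BL/6 at 1-day (38.95 to 53.2). In the same library Smox was at 264 CPM (129 to 156) and Hk2 at 208 CPM (138 to 155). In injured C57BL/6 joints, Smox was at 64.55 CPM in library 4 at 1-day (73.6 to 76.95) and Hk2 at 412 CPM in library 3 at 2-weeks (294 to 309).

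Injured library 5 of STR/ort at 1-day held Mstn at 32.5 CPM (8.71 to 13.5), and injured library 4 at 1-week held it at 30.1 CPM (20.2 to 21.9). Gadd45a was at 36.1 CPM in uninjured library 2 of STR/ort at 1-day (51.2 to 57.1), Foxo3 at 23.4 CPM in uninjured library 3 of STR/ort at 1-week (17.1 to 17.9) and Foxo1 at 59.45 CPM in uninjured library 5 of C57BL/6 at 2-weeks (55.8 to 56.7). Injured library 4 of MRL/MpJ at 2-weeks held Foxo3 at 42.5 CPM (60.1 to 63.8) and Smox at 307 CPM (176 to 212), and uninjured library 4 held Hk2 at 274.5 CPM (372 to 406). Bdh1 was at 29.0 CPM in injured library 5 of MRL/MpJ at 1-day (23.3 to 24.3) and at 30.4 CPM in injured library 3 of STR/ort at 2-weeks (15.5 to 18.4).

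Injury changes differed between strains in edgeR's interaction test for Smox at 1-day (STR/ort minus C57BL/6, 0.99, adjusted p = 0.00136) and for Bdh1 at 1-week (STR/ort minus C57BL/6, 0.84, adjusted p = 0.0490). The Smox difference kept its call in all 28 settings (0.80 to 1.08), and the Bdh1 difference lost it in 18 of 27.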

How the results depend on the processing

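The 1-day calls of Fbxo32, Trim63 and Smox between injured and uninjured joints held in all 18 settings tried for each, while in MRL/MpJ Fbxo32 was called with RUVg (0.91 and 0.96 with 1 and 2 factors). The 1-day strain calls of these genes did not all hold, as given above. Member calls at 0-day were 13, and 8, 4 and 6 with RUVg of 1 factor, of 2 factors and the muscle score. Those of uninjured joints were 40, and 25 with 2 factors. Interactions gave 2 calls, 1 with RLE scaling, 3 each with 1 RUVg factor, 2 factors and the muscle score, and 4 with the replicate block. Of 16 called values the block lost 0 and it added 5, all at 1-week. The injury calls were 5 higher and 9 lower, and 6 and 5 with 2 RUVg factors or the muscle score; calls over time were 4 and 12, and 6 and 7 with the muscle score. With one library left out, calls ranged from 12 to 17 for injury, 1 to 3 for interactions, 12 to 14 at 0-day, 29 to 36 in injured and 39 to 41 in uninjured joints, 15 to 17 over time and 0 to 0 for the muscle-scaled changes. The smallest p of the permutation test does not fall when a library is left out, so the 0 to 0 says little about stability. No setting moved the median of all genes by over 0.1. Of 119 called values DESeq2 lost 2, RLE 2, filterByExpr 1, no filter 0, RUVg 28 and 47 and the muscle score 32. The cause of the losses was not tested, and no value was reversed when a library was left out. Depth limits Chrng and other genes under 1 CPM.

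Reversed values follow as log2 changes, in the order 1 factor, 2 factors and muscle score where all 3 turned. For C57BL/6 against MRL/MpJ at 0-day, the muscle score gave Fbxo32 0.20, Trim63 0.071 and Bdh1 0.26, and 2 factors gave Bdh1 0.019. For STR/ort against C57BL/6 at 0-day it gave Bdh1 -0.19. In injured joints at 1-day, the muscle score gave Mstn 0.0023 for C57BL/6 against MRL/MpJ, and STR/ort against MRL/MpJ gave Fbxo32 0.30, 0.24 and 0.051 and Trim63 0.74, 0.71 and 0.27. In uninjured joints at 1-day, RUVg gave Trim63 0.578 and 0.485 against MRL/MpJ and 0.67 and 0.67 against C57BL/6, and Mstn was 0.15 with 1 factor and 0.18 with the muscle score against MRL/MpJ. In injured joints at 1-week, STR/ort against MRL/MpJ gave Trim63 1.26 with the muscle score and Mstn 0.74, 1.30 and 0.92, and against C57BL/6 Fbxo32 0.36, 0.525 and 0.18, Trim63 0.73 with the muscle score and Mstn 0.77, 1.06 and 0.70. In uninjured joints at 1-week, STR/ort against MRL/MpJ gave Fbxo32 0.19 and 0.51 with RUVg, Trim63 0.53, 0.86 and 0.71 and Mstn 0.35, 0.86 and 0.25, and against C57BL/6 Trim63 0.315, 0.43 and 0.34 and Mstn 0.76 and 0.93 with RUVg. For uninjured STR/ort joints at 1-day against 0-day, 1 factor gave Fbxo32 0.0201, Trim63 gave 0.255, 0.17 and 0.015, and the muscle score gave Mstn 0.68.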
